A study of Homo sapiens with 18 samples.

Results

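The BCL2 family apoptosis genes were followed through 18 RNA-seq libraries of PANC-1, a human pancreatic ductal adenocarcinoma cell line. Their 10 members, BCL2, BCL2L1, MCL1, BAX, BAK1, BBC3, PMAIP1, BCL2L11, BID and BAD, were found by gene symbol among the 26485 genes listed in each of 2 deposited tables. All 10 were listed in both tables.

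Proteins of this family decide whether the outer membrane of the mitochondrion stays closed. Guardians (BCL2, BCL-xL from BCL2L1, and MCL1) hold the effectors BAX and BAK1 in check, and the effectors form the pores through which cytochrome c leaves when they are freed. BH3-only proteins are the upstream signals: BIM (from BCL2L11), BID, BAD, NOXA (from PMAIP1) and PUMA (from BBC3) bind guardians, and some also engage effectors directly. Pancreatic carcinoma cells commonly rely on BCL-xL and MCL1, and much of the control of MCL1, BAD and BID acts on the protein, which these RNA tables do not measure.

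One table held 3 libraries for each of 3 transfections, which were a control siRNA and 2 siRNAs against PKR, named PKR siRNA 1 and PKR siRNA 2. The other held 3 libraries each of cells given DMSO (the solvent), C16 at 400 nM or C16 at 800 nM. All RNA was taken after 72 h, and no label named a further genetic change in any group. PKR is the double-stranded-RNA-activated kinase encoded by EIF2AK2, and C16 is a small-molecule inhibitor of its kinase activity. The siRNA libraries came from run 1 and the C16 libraries from run 2, so treatment type and run cannot be told apart and each table was compared only within itself. Both siRNAs shared the control libraries, and both C16 doses shared the DMSO libraries. Whether replicates were separate cultures was not stated, so the p-values measure the spread between these libraries, which may be technical.

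Between 1512940 and 1873906 reads per library fell on genes in the siRNA table, and between 894145 and 1474308 in the C16 table. EIF2AK2 fell with both siRNAs, from 97.4 ± 5.21 normalized counts (SD, n = 3) to 11.1 ± 2.19 under PKR siRNA 1, and to 8.65 ± 0.73 under PKR siRNA 2. It was at 49.8 ± 4.20 in DMSO, 42.5 ± 3.26 at C16 400 nM and 49.9 ± 1.38 at 800 nM. All 6 epithelial markers were detected in every group, and PTPRC and CD3E were at 0 in all libraries. The summed epithelial markers were 5358 to 5451 normalized counts in control libraries, 3052 to 3280 under PKR siRNA 1, and 9586 to 10233 in the libraries of PKR siRNA 2. In the C16 table that sum was 7171 to 7572 in DMSO, 6033 to 6544 at 400 nM and 5172 to 5685 at 800 nM. KRT8, KRT18 and KRT19 made up most of the sum, and the markers did not move together. With PKR siRNA 2, mean EPCAM (102.6 in controls, 10.7) and KRT7 (18.2, 4.64) were lower, and KRT8, KRT18, KRT19 and CDH1 higher. With C16, EPCAM was higher (17.8 in DMSO, 25.7 and 30.3), and KRT8, KRT19 and CDH1 lower at both doses. The part of these marker differences in the results was not tested. Of the 3 leukocyte markers reported only CD68 was above 0 (51.0 to 273 over all libraries), of 5 fibroblast markers only COL1A1 reached a mean of 10 in a group, and the 4 endothelial markers summed to at most 2.14. In such bulk libraries, fewer cells of a type and less RNA per cell cannot be told apart.

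The promoters of BAX, BAK1 and BCL2L11 are shown because the effectors BAX and BAK1 moved in opposite directions with PKR siRNA 1 and BCL2L11 was the BH3-only gene called both between the siRNAs and at both C16 doses. Each runs 5′ to 3′ on the gene's strand, from 250 bases before to 50 bases after the RefSeq start, in GRCh38.p14. Capitals mark matches on either strand to the letters GGGCGG (Sp1 box), CCAAT or CACGTG (E-box).
BAX, chr19:48954625-48954924, plus strand: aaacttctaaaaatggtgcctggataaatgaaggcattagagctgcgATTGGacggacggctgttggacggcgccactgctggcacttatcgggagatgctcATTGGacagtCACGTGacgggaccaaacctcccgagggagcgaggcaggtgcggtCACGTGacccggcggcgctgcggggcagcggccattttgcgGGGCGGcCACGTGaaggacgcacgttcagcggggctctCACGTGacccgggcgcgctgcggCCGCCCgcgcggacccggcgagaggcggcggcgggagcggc
BAK1, chr6:33580227-33580526, minus strand: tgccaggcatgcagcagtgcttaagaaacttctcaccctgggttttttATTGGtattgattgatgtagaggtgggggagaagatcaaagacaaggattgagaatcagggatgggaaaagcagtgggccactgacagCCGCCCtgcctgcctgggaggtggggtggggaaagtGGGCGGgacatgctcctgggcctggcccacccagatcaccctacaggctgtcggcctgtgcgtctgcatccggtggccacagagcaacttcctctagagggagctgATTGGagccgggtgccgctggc
BCL2L11, chr2:111120664-111120963, plus strand: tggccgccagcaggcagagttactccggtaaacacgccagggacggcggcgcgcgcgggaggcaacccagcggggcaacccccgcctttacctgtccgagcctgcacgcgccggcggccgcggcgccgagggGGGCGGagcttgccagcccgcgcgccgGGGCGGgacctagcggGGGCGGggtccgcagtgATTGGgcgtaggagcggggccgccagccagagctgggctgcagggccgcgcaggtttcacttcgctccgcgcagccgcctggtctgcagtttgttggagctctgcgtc

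All 3 held the Sp1 box and the CCAAT letters, which stood in 44.6% and 35.7% of 27305 RefSeq promoters of this length. Only BAX of these 3 held the E-box letters, as 4 matches, and 7.43% of all promoters held at least 1. Over the 9 members with a RefSeq promoter (MCL1 had no entry, and the first listed promoter was searched where a gene had several), 6 held the Sp1 box, 5 CCAAT and 2 CACGTG. TGATGNAA, the letters of the composite site used by ATF4, were in none of the 9 and in 3.67% of all promoters, and the cAMP response element TGACGTCA was in none of the 9 and in 1.98% of all. These matches describe letters in a window and are not evidence of binding.

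Most members gave enough reads to test, and 2 did not. A gene was tested where its mean over the 9 libraries of a table reached 10 normalized counts, which 8 of 10 members did in each table. BCL2, on chromosome 18 (63123346 to 63319380, minus strand, hg38 as for all gene positions here), gave 0 or 1 read in every siRNA library and 0 to 4 reads in every C16 library. A count of 0 allows up to 3 reads at this depth, so the founding guardian was at or near the limit of detection throughout. BBC3 (chromosome 19, 47220822 to 47232766, minus strand), which encodes PUMA, gave 5 to 13 reads in the siRNA libraries and 0 to 10 in the C16 libraries, and its groups overlapped in all 6 comparisons. Changes were tested with limma on log2(normalized count + 1), with Benjamini-Hochberg adjustment over all tested genes, and a gene was called where the adjusted p was under 0.05 and the fold over 1.5. Fold changes are on that scale, which understates changes of low genes. An exact permutation test of 3 libraries against 3 cannot go below p = 0.1, which is what each pair of groups that did not overlap gave.

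**Figure D1:**
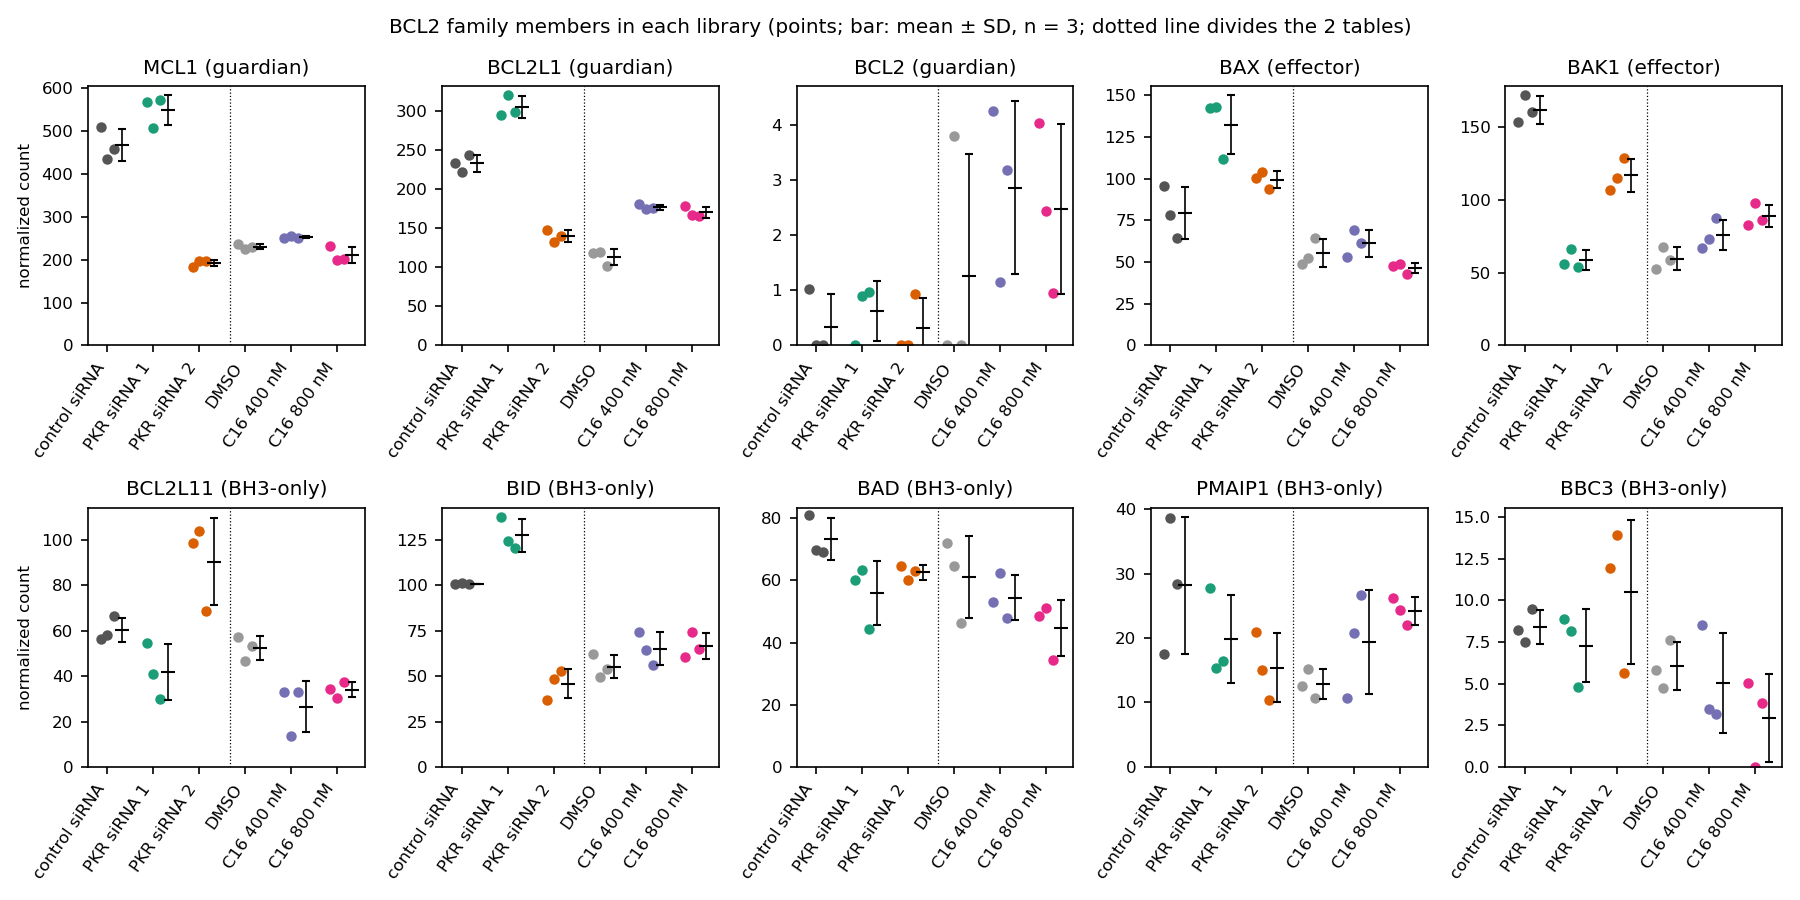
Normalized counts (vertical axis, from 0) of the 10 members in every library, by group, with mean ± SD (n = 3) beside the points; the dotted line divides the siRNA table from the C16 table, whose levels are not compared. MCL1, BCL2L1 and BID sit lowest with PKR siRNA 2, BAK1 lowest with PKR siRNA 1, and BCL2L1 lies above all DMSO libraries at both C16 doses.

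The guardians MCL1 and BCL2L1 were called lower with PKR siRNA 2, and neither was called with PKR siRNA 1. MCL1 (chromosome 1, 150574551 to 150579738, minus strand), a short-lived guardian, had 508, 434 and 457 normalized counts in control libraries. It stood at 566, 507 and 571 in those of PKR siRNA 1, and PKR siRNA 2 gave 183, 196 and 197. All 3 PKR siRNA 2 libraries were far below the rest, while those of PKR siRNA 1 overlapped the controls by one library. MCL1 fell 2.42-fold with PKR siRNA 2 (log2 fold change −1.27, SE 0.07, adjusted p = 3.00e-26), and with PKR siRNA 1 the log2 difference was 0.23 (SE 0.07, adjusted p = 0.00626), short of the fold threshold.

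BCL2L1 (chromosome 20, 31664458 to 31722853, minus strand), the gene of BCL-xL, stood at 233, 222 and 244 normalized counts in control libraries. With PKR siRNA 1 it was at 295, 321 and 299, all above the controls, and with PKR siRNA 2 at 148, 132 and 140, all below them. The fall with PKR siRNA 2 was called (1.66-fold lower, log2 fold change −0.73, SE 0.09, adjusted p = 2.26e-11). The PKR siRNA 1 difference was 1.31-fold higher (log2 0.39, SE 0.09, adjusted p = 0.000127) and under the fold threshold. Compared directly, PKR siRNA 2 libraries had 2.84-fold less MCL1 (adjusted p = 1.00e-30) and 2.17-fold less BCL2L1 (adjusted p = 1.82e-19) than PKR siRNA 1 libraries. Gene-level counts do not separate the long and short products of BCL2L1 or of MCL1, whose short forms promote death.

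Among the siRNA comparisons with control, the effectors were called only with PKR siRNA 1. BAK1 (chromosome 6, 33572546 to 33580293, minus strand) had 153, 172 and 160 normalized counts in controls. PKR siRNA 1 libraries had 55.5, 66.2 and 54.0, and those of PKR siRNA 2 had 106, 115 and 129. These 3 groups did not overlap: PKR siRNA 1 was lowest and PKR siRNA 2 lay between. BAK1 fell 2.74-fold with PKR siRNA 1 (log2 fold change −1.45, SE 0.12, adjusted p = 7.70e-18), and with PKR siRNA 2 it was 1.39-fold lower (adjusted p = 0.00066), which was not called.

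BAX (chromosome 19, 48954860 to 48961798, plus strand), the other pore former, had 95.5, 78.4 and 64.5 normalized counts in controls and 142, 143 and 112 with PKR siRNA 1. All PKR siRNA 1 libraries were above all controls, and BAX rose 1.67-fold (log2 fold change 0.74, SE 0.13, adjusted p = 8.34e-07). With PKR siRNA 2 it was at 100.5, 104 and 94.0, overlapping the highest control (log2 0.34, SE 0.13, adjusted p = 0.0215). Scaled by exon length, BAX stood at 0.83 ± 0.19 times the level of BAK1 in controls (SD, n = 3), 3.81 ± 0.44 times under PKR siRNA 1 and 1.45 ± 0.19 times under PKR siRNA 2. Thus BAK1 was the higher effector in the average control library and BAX in every PKR siRNA 1 and PKR siRNA 2 library.

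Among the tested BH3-only members, BID and BCL2L11 differed most between the siRNAs. BID (chromosome 22, 17734140 to 17774665, minus strand), which links death receptors to the mitochondrion once cleaved, had between 100.5 and 101 normalized counts in the 3 controls. PKR siRNA 1 libraries gave 138, 124 and 121, and PKR siRNA 2 libraries 36.8, 48.3 and 52.7. It was thus above all controls with one siRNA and below all of them with the other. BID fell 2.19-fold with PKR siRNA 2 (log2 fold change −1.13, SE 0.13, adjusted p = 1.60e-11), and was 1.26-fold higher with PKR siRNA 1 (adjusted p = 0.032), under the fold threshold. DESeq2 gave the PKR siRNA 1 difference of BID an adjusted p of 0.079.

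BCL2L11 (chromosome 2, 111120914 to 111168445, plus strand), the gene of BIM, went the other way. It had 56.5, 58.0 and 66.4 normalized counts in controls. It was at 54.4, 40.8 and 29.9 under PKR siRNA 1 and at 98.5, 104 and 68.7 under PKR siRNA 2. Neither siRNA group overlapped the controls. Against control, the log2 difference was −0.56 (SE 0.16, adjusted p = 0.00387) under PKR siRNA 1 and 0.56 (SE 0.16, adjusted p = 0.00364) under PKR siRNA 2, both just under the 1.5-fold threshold. Between the siRNAs BCL2L11 was 2.17-fold higher with PKR siRNA 2 (adjusted p = 1.65e-08) and was called. The PKR siRNA 2 difference against control was called by DESeq2 (log2 0.59, adjusted p = 0.0178), and the PKR siRNA 1 difference was not (adjusted p = 0.0585). With limma, the PKR siRNA 1 fall was called without PKR siRNA 1 replicate 1 (log2 −0.77) or control siRNA replicate 1 (log2 −0.60). The PKR siRNA 2 rise was called without PKR siRNA 2 replicate 3 (log2 0.74) or control siRNA replicate 3 (log2 0.63).

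PMAIP1 (chromosome 18, 59899960 to 59904306, plus strand), the gene of the MCL1-binding NOXA, had few reads, 11 to 36 per siRNA library. Its controls spread from 17.5 to 38.7 normalized counts, and PKR siRNA 2 libraries from 10.3 to 20.9, so the groups overlapped. It was called lower with PKR siRNA 2 (log2 fold change −0.81, SE 0.28, adjusted p = 0.0121), but DESeq2 gave an adjusted p of 0.0617, and the call was lost without PKR siRNA 2 replicate 3 (log2 −0.57) or control siRNA replicate 2 (log2 −0.56). Under PKR siRNA 1 PMAIP1 was at 27.8, 15.4 and 16.4, also overlapping the controls (log2 −0.46, SE 0.28, adjusted p = 0.171). BAD (chromosome 11, 64269828 to 64284704, minus strand), whose product is held inactive by phosphorylation, was 81.1, 69.8 and 69.2 in controls. PKR siRNA 1 libraries had 59.98, 63.5 and 44.4, and PKR siRNA 2 libraries 64.7, 60.05 and 63.0. Both siRNA groups lay below the controls, but the log2 differences of −0.40 (adjusted p = 0.0249) and −0.22 (adjusted p = 0.224) were not called. An opposite-strand gene shares exon sequence with BCL2L1 (ABALON, 930 bases, 36.3% of its exon length) and with BAD (GPR137, 128 bases, 10.5%). Strand use and the handling of shared reads in the counting were not stated. Counts of these 2 members, and the shares and ratios that include them, may therefore be affected.

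With PKR siRNA 1, 1 of the 8 tested members was called higher and 1 lower, where 8.53% of all 10593 tested genes were called higher and 12.6% lower. With PKR siRNA 2, 0 members were called higher and 4 lower (MCL1, BCL2L1, BID and PMAIP1), against 10.8% and 12.8% of all genes. The median log2 difference of the 8 was −0.08 under PKR siRNA 1 and −0.60 under PKR siRNA 2, where the medians of all tested genes were −0.01 in each. With each siRNA the groups did not overlap for 6 of the 8, where this held for 51.7% and 54.3% of all tested genes. Between the 2 siRNAs 2 members were called higher and 3 lower with PKR siRNA 2, against 16.4% and 15.3% of all genes. BAK1 (1.98-fold) and BCL2L11 were the higher ones, and MCL1, BCL2L1 and BID (2.77-fold) the lower ones. Leaving out control siRNA replicate 1 raised the PKR siRNA 1 count of called members from 2 to 4, adding BCL2L11 (log2 −0.60) and PMAIP1 (log2 −0.76).

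**Figure D2:**
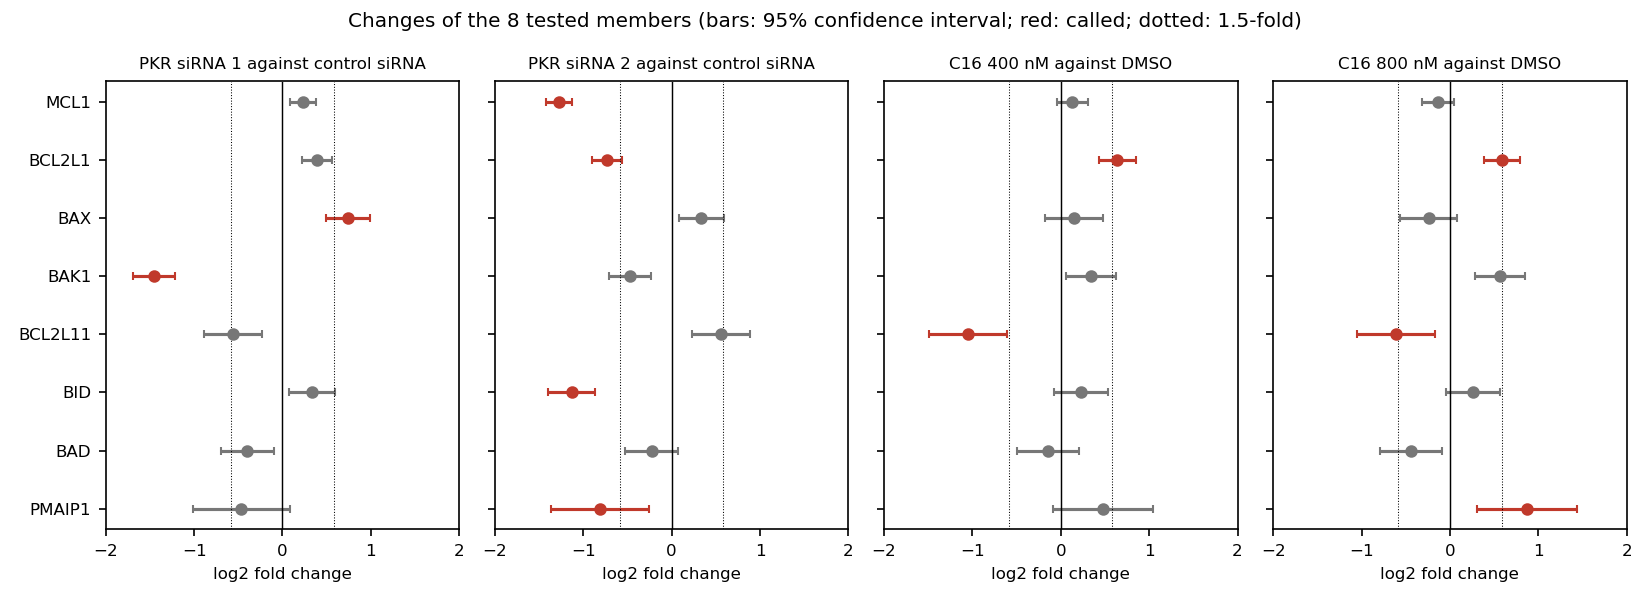
Log2 fold change (horizontal axis) of each of the 8 tested members in the 4 comparisons with a control, with 95% confidence intervals; red points are called, and dotted lines mark 1.5-fold. The BAK1 point stands apart with PKR siRNA 1, MCL1 and BID with PKR siRNA 2, and BCL2L1 lies to the right and BCL2L11 to the left of 0 at both C16 doses.

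With C16, BCL2L1 and BCL2L11 were called at both doses, in opposite directions. BCL2L1 had 119, 120.0 and 101 normalized counts in DMSO, 181, 174 and 176 at 400 nM and 179, 167 and 166 at 800 nM. Every C16 library was above every DMSO library. The rise was 1.56-fold at 400 nM (log2 fold change 0.64, SE 0.10, adjusted p = 1.62e-06) and just over the fold threshold at 800 nM (log2 0.59, SE 0.10, adjusted p = 3.61e-06), and both sat close to that threshold. Without DMSO replicate 3 neither dose passed it (log2 0.56 and 0.51), although the adjusted p remained low (5.82e-05 and 0.000122), and at 800 nM it was also missed without C16 800 nM replicate 1 (log2 0.56) and with a pseudocount of 5 (log2 0.57). MCL1 was at 236, 226 and 229 in DMSO, 251, 255 and 251 at 400 nM and 231, 199.9 and 200.4 at 800 nM, and was not called at either dose (log2 0.13 and −0.13).

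BCL2L11 fell at both doses. It had 57.3, 46.7 and 53.3 normalized counts in DMSO, 33.0, 13.8 and 33.0 at 400 nM, and 34.3, 30.5 and 37.2 at 800 nM. All C16 libraries were below all DMSO libraries, and C16 400 nM replicate 2 was lower still. The fall was 2.07-fold at 400 nM (log2 fold change −1.05, SE 0.22, adjusted p = 0.000174) and 1.53-fold at 800 nM (log2 −0.61, SE 0.22, adjusted p = 0.0195). The 800 nM call was lost with DESeq2 (adjusted p = 0.0589), with a pseudocount of 5 (log2 −0.56) and without C16 800 nM replicate 2 (log2 −0.54), DMSO replicate 1 (log2 −0.54) or DMSO replicate 3 (adjusted p = 0.0556).

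PMAIP1, again with few reads (10 to 26 per library), was at 12.6, 15.2 and 10.7 in DMSO, 10.6, 20.8 and 26.6 at 400 nM and 26.2, 24.4 and 21.9 at 800 nM. The 800 nM libraries were all above DMSO, and PMAIP1 rose 1.83-fold there (log2 fold change 0.87, SE 0.28, adjusted p = 0.00968), whereas the 400 nM group overlapped DMSO (log2 0.48, SE 0.28, adjusted p = 0.217). That 400 nM difference was called without C16 400 nM replicate 1 (log2 0.84, adjusted p = 0.0288).

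BAK1 was at 52.5, 67.6 and 58.6 in DMSO, 67.0, 72.6 and 87.2 at 400 nM and 82.7, 97.5 and 85.9 at 800 nM. Its 800 nM libraries were above all DMSO libraries, and the log2 difference of 0.57 (SE 0.14, adjusted p = 0.00076) fell just short of 1.5-fold. It was called without DMSO replicate 2 (log2 0.66), C16 800 nM replicate 1 (log2 0.62) or C16 800 nM replicate 3 (log2 0.59). BAX, BID and BAD were not called at either dose, and their log2 differences lay between −0.44 (BAD at 800 nM) and 0.27 (BID at 800 nM). BAD passed both thresholds at 800 nM without DMSO replicate 3 (log2 −0.62, adjusted p = 0.00625). BAX stood at 1.57 ± 0.28 times BAK1 per length in DMSO, 1.37 ± 0.21 times at 400 nM and 0.88 ± 0.07 times at 800 nM.

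At 400 nM, 1 member was called higher and 1 lower, where 7.08% of 9963 tested genes were called higher and 5.45% lower. At 800 nM, 2 were called higher and 1 lower, against 11.6% and 14.1%. Groups did not overlap for 3 of the 8 at 400 nM and 4 at 800 nM, where this held for 39.6% and 51.8% of all tested genes. The members' median log2 difference was 0.19 at 400 nM and 0.07 at 800 nM, beside 0.00 for all tested genes at both.

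Between the doses 0 of the 8 members were called, where 1.13% of tested genes were called higher and 3.95% lower at 800 nM. With limma, 2 members had an unadjusted p under 0.05, and edgeR and DESeq2 also called 0. MCL1 was lower at 800 nM by a log2 difference of −0.26 (95% confidence interval −0.44 to −0.09, adjusted p = 0.0347), and BAX by −0.39 (−0.72 to −0.07, adjusted p = 0.0965), with no overlap between the doses for either gene. For BCL2L1 the dose difference was −0.05 with an interval of −0.26 to 0.15, for BCL2L11 0.44 (−0.0025 to 0.87), and for PMAIP1 0.39 (−0.17 to 0.96).

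The balance of the classes was described as the share of each in the summed normalized count per kilobase of exon of all 10 members. Guardians made up 44.1% ± 1.84 of this sum in control libraries (SD, n = 3), 51.3% ± 3.50 under PKR siRNA 1 and 31.1% ± 0.83 under PKR siRNA 2. The 3 siRNA groups did not overlap: PKR siRNA 1 libraries ran from 49.2% to 55.3%, controls from 42.0% to 45.6%, and PKR siRNA 2 libraries from 30.2% to 31.8%. Effectors held 28.9% ± 1.66 in controls, and the siRNA values were 25.8% ± 1.94 under PKR siRNA 1 and 39.6% ± 1.07 under PKR siRNA 2. The effector sum itself was 135 ± 10.8 per kilobase in controls, 128 ± 15.7 and 129 ± 3.46, whereas the guardian sum went from 205 ± 11.4 to 254 ± 3.60 under PKR siRNA 1 and 102 ± 1.91 under PKR siRNA 2. Both siRNA means of the effector sum lay within 1 SD of the control mean. The BH3-only sum was 126 ± 1.85 per kilobase in controls, 114 ± 15.7 under PKR siRNA 1 and 95.9 ± 4.80 under PKR siRNA 2. As shares, BH3-only genes held 27.1% ± 0.94, 22.9% ± 1.94 and 29.3% ± 1.26 in that order. The sum of all 10 members was 466 ± 16.5, 496 ± 27.7 and 327 ± 2.87, so the higher effector share under PKR siRNA 2 went with a lower total.

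In the C16 table guardians held 38.9% ± 0.31 in DMSO, 44.0% ± 1.57 at 400 nM and 43.1% ± 2.33 at 800 nM, and every C16 library was above every DMSO library. Without length scaling this no longer held at 800 nM, where replicate 2 was at 53.1% and DMSO replicates 1 and 2 at 53.3% and 53.7%. BH3-only genes held 34.1% ± 3.61 in DMSO, 28.7% ± 1.41 at 400 nM and 29.3% ± 1.495 at 800 nM, where the 800 nM group overlapped DMSO. MCL1 was 1.28 ± 0.12 times BCL2L1 per length in DMSO, 0.89 ± 0.02 times at 400 nM and 0.77 ± 0.03 times at 800 nM. With the siRNAs the same ratio was 1.26 ± 0.10 in controls, 1.13 ± 0.12 under PKR siRNA 1 and 0.86 ± 0.08 under PKR siRNA 2. These shares rest on RNA per exon length, carry no test, and are lower for guardians than shares of plain counts.

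**Figure D3:**
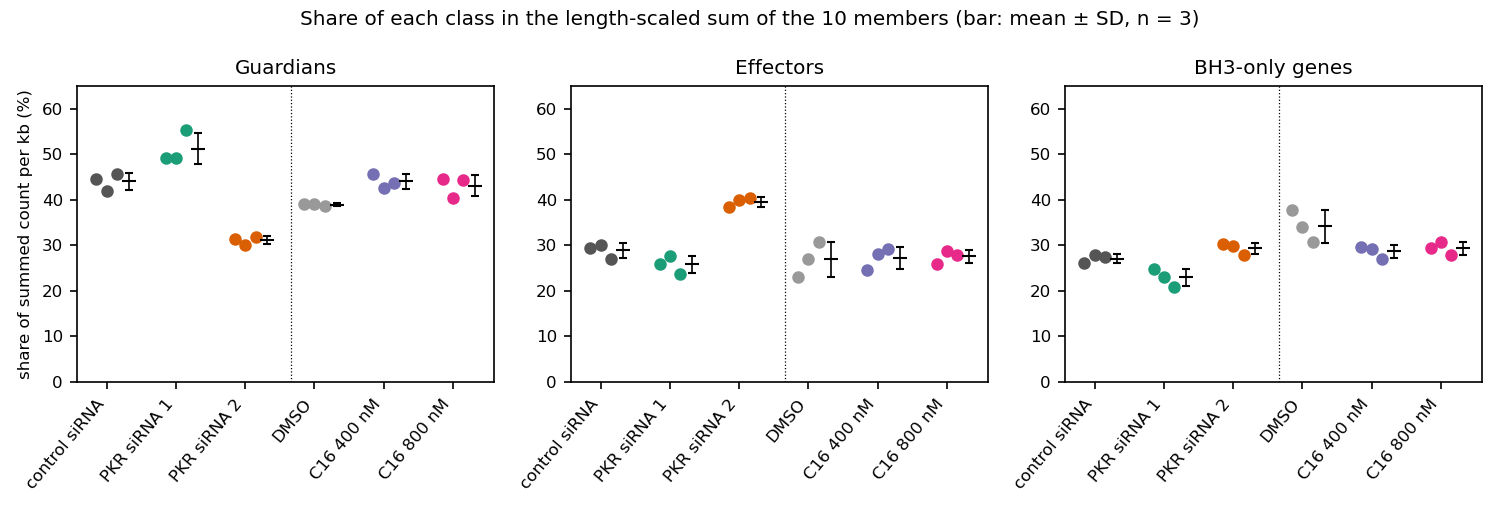
Share (vertical axis, %) of guardians, effectors and BH3-only genes in the summed normalized count per kilobase of the 10 members, 1 point per library, with mean ± SD (n = 3). Guardians drop to 31.1% and effectors rise to 39.6% on average with PKR siRNA 2, and guardians lie above DMSO at both C16 doses.

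Among other BCL2 family genes, BCL2A1, a further guardian, had calls in both directions. It gave 20, 21 and 33 reads in control libraries. PKR siRNA 1 libraries gave 35, 43 and 54 reads, and PKR siRNA 2 libraries 2, 3 and 1. The ratio of summed reads to control, scaled to normalized depth, was 0.08 with PKR siRNA 2 (95% exact counting interval 0.03 to 0.18) and 1.74 with PKR siRNA 1 (1.30 to 2.34). In the C16 table BCL2A1 gave 8, 2 and 1 reads in DMSO, 13, 14 and 18 at 400 nM and 19, 18 and 17 at 800 nM, with ratios of 5.05 (2.57 to 10.8) and 5.82 (3.01 to 12.4). These intervals cover counting error only. BCL2A1 was called in all 4 comparisons (limma log2 0.79, −3.13, 2.28 and 2.49), but the PKR siRNA 1 call (adjusted p = 0.0325) was lost in 5 of the 6 fits that left out a library, each single one of them apart from control siRNA replicate 3, with log2 values of 0.65 to 0.86, and in the fit with no minimum (adjusted p = 0.085).

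BNIP3L, a mitophagy receptor, was 39.0 ± 6.91 normalized counts in controls and 63.0 ± 0.83 with PKR siRNA 2 (log2 0.69, adjusted p = 0.000283). With PKR siRNA 1 it was 58.5 ± 6.41 (log2 0.58, adjusted p = 0.0025), just under the fold threshold and called by edgeR and DESeq2. Under C16 it fell from 53.3 ± 6.85 in DMSO to 26.2 ± 1.61 at 400 nM and 21.1 ± 6.51 at 800 nM (log2 −0.99 and −1.33). The PKR siRNA 2 call was lost without control siRNA replicate 2 (log2 0.54). Of the 13 listed relatives 8 were tested in the siRNA table, of which 1 was called higher and 1 lower with PKR siRNA 1, and 2 higher and 1 lower with PKR siRNA 2. That PKR siRNA 1 count of 2 was 0 without PKR siRNA 1 replicate 3 or control siRNA replicate 2, 1 without PKR siRNA 1 replicate 2, and 4 without control siRNA replicate 3. Under C16 7 were tested and 1 was called in each direction at each dose. Among all tested genes, higher calls made up 8.53% (PKR siRNA 1), 10.8% (PKR siRNA 2), 7.08% (400 nM) and 11.6% (800 nM). Lower calls made up 12.6%, 12.8%, 5.45% and 14.1% in turn. Chosen after its values were seen, BMF, a BH3-only gene, rose with PKR siRNA 2 (38.2 against 15.0 normalized counts, log2 1.31), and BOK, an effector-like relative, was lower with PKR siRNA 1 (log2 −0.61).

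Downstream of the pore, the 14 genes reported here of the apoptosome and caspase list were all tested in the siRNA table. With PKR siRNA 1, 1 was called lower, on inspection APAF1 (log2 −0.68), and the number called was 2 without any 1 of the PKR siRNA 1 replicates and 0 without control siRNA replicate 3. With PKR siRNA 2, 6 were called lower, against 12.8% of all tested genes, and the list's median log2 difference was −0.49, beside −0.01. CYCS, which encodes cytochrome c, fell from 659 ± 44.7 normalized counts to 419 ± 20.4 (log2 −0.65, adjusted p = 7.89e-15). DFFA, the inhibitor of the apoptotic nuclease, fell from 189.6 ± 9.23 to 98.7 ± 14.4 (log2 −0.94), and BIRC2, an inhibitor-of-apoptosis protein, from 373 ± 13.8 to 196 ± 14.8 (log2 −0.92). CASP6, an executioner caspase, fell (log2 −0.84, adjusted p = 0.0019). BIRC3 (log2 −1.54) and CASP9 (log2 −0.70) completed the 6 that fell, and were named after their values were seen.

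Of these 14 genes 13 were tested under C16, with 1 called higher at 400 nM and 3 higher and 1 lower at 800 nM. DFFA rose from 68.1 ± 2.16 in DMSO to 127 ± 11.9 and 120.4 ± 11.0 (log2 0.89 and 0.81). At 800 nM CYCS (log2 0.67) and BIRC2 (log2 0.68) rose and CASP6 fell (18.8 ± 1.18 to 9.26 ± 3.06 normalized counts, adjusted p = 0.00841, but 0.083 without C16 800 nM replicate 3 and 0.056 with DESeq2). None of the 9 mitochondrial partners, such as the VDAC channels, was called with PKR siRNA 2 or at 400 nM. One was lower with PKR siRNA 1 and 2 were higher at 800 nM, which on inspection were MARCH5 (log2 −0.83), BAG1 (log2 0.61) and OPA1 (log2 0.59). The 800 nM count of 2 was 1 without C16 800 nM replicate 3 or DMSO replicate 3 and 0 with a pseudocount of 5. Of all tested genes, 12.6% were called lower with PKR siRNA 1 and 7.08% higher at 400 nM. At 800 nM 11.6% of all tested genes were called higher and 14.1% lower.

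Of 11 death receptor genes 9 were tested in each table. TNFRSF10A, which encodes a TRAIL receptor, rose with PKR siRNA 1 (22.5 ± 4.14 to 40.4 ± 2.59 normalized counts, log2 0.83). It was also called higher at both C16 doses (7.34 ± 1.39 in DMSO, 15.4 ± 2.87 and 16.5 ± 4.42, log2 0.97 and 1.05). With PKR siRNA 2 its log2 difference was −0.38 (adjusted p = 0.178). Its DMSO mean was under the minimum of 10, which it reached over the 9 libraries only through the C16 groups. At that DMSO level it could be tested only if it was higher with C16. The 400 nM call of TNFRSF10A was lost without C16 400 nM replicate 2 or DMSO replicate 1 (log2 0.84 each) and with DESeq2 (adjusted p = 0.12), and in the fit with no minimum on the mean (adjusted p = 0.053), and the 800 nM call without C16 800 nM replicate 1 (log2 0.86). Among the tested 9, the calls were 1 higher and 1 lower with PKR siRNA 1, 1 lower with PKR siRNA 2, 1 higher at 400 nM and 1 higher and 2 lower at 800 nM. The lower ones, named after their values were seen, were TNFRSF10B (log2 −0.64), FAS (log2 −1.87), and TRADD and CFLAR (log2 −0.85 and −0.77). The PKR siRNA 1 count fell to 1 without PKR siRNA 1 replicate 3, and the 800 nM count from 3 to 1 without C16 800 nM replicate 1. Of all tested genes, 8.53% were called higher and 12.6% lower with PKR siRNA 1, and 12.8% lower with PKR siRNA 2. At 400 nM 7.08% were called higher, and at 800 nM 11.6% higher and 14.1% lower.

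Several regulators of the family were called higher in each comparison with a control. Of the 12 reported here and tested in the siRNA table, 6 were called higher under PKR siRNA 1 and 3 under PKR siRNA 2, and of 13 under C16, 5 were called higher at each dose. Their median log2 differences were 0.54, 0.44, 0.33 and 0.26 in that order, beside −0.01, −0.01, 0.00 and 0.00 for all tested genes. Of all tested genes, 8.53%, 10.8%, 7.08% and 11.6% were called higher in the same comparisons. At 800 nM 3 regulators were called without any 1 of C16 800 nM replicates 1 and 2 and DMSO replicates 1 and 3. ATF3, a stress-induced transcription factor, was called in all 4 comparisons (log2 1.32, 1.21, 1.95 and 1.90), as was DDIT3, which encodes CHOP (log2 0.72, 0.83, 1.05 and 0.80), although DDIT3 lost both siRNA calls without control siRNA replicate 2 (log2 0.47 and 0.58). ATF4, their upstream factor in the integrated stress response, was 292 ± 46.8 normalized counts in controls, 649 ± 55.4 under PKR siRNA 1 and 510.5 ± 23.4 under PKR siRNA 2, and 249.5 ± 15.0 in DMSO, 404 ± 7.94 at 400 nM and 279 ± 24.6 at 800 nM. Its calls were with both siRNAs (log2 1.16 and 0.81) and at 400 nM (log2 0.70), and at 800 nM the log2 difference was 0.16 (adjusted p = 0.115). TRIB3, an ATF4 target, rose with PKR siRNA 1 (log2 0.67) and with C16 (log2 1.23 and 1.10), while with PKR siRNA 2 it was 0.08, and its PKR siRNA 1 call was lost without PKR siRNA 1 replicate 2 (log2 0.50) or control siRNA replicate 2 (log2 0.49). CEBPB rose with PKR siRNA 1 (log2 1.14) and at 800 nM (log2 0.62), and FBXW7, a ubiquitin-ligase subunit that marks MCL1 for destruction, at both C16 doses (log2 0.72 and 0.75). The C16 calls of CEBPB and FBXW7 were weak: DESeq2 made none of them (adjusted p of 0.14 to 0.17 for CEBPB at 800 nM and FBXW7 at 400 nM, and 0.075 for FBXW7 at 800 nM). Those at 800 nM remained for CEBPB only without DMSO replicate 2, among the fits leaving out a library, and for FBXW7 only without C16 800 nM replicate 3 or DMSO replicate 2, and that of FBXW7 at 400 nM only without C16 400 nM replicate 3. MYC, named after its values were seen, was called higher with PKR siRNA 1 (log2 1.04). These counts describe the lists, which were chosen with earlier results of these data known, and are not a test of them.

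**Figure D4:**
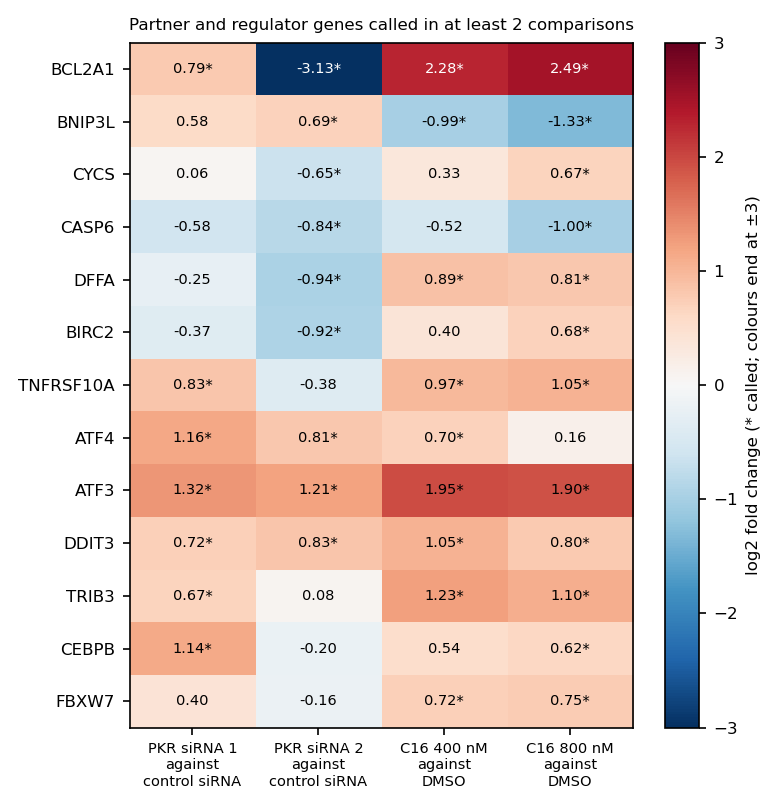
Log2 fold change (colour and number) of the 13 partner and regulator genes shown, each called in at least 2 of the 4 comparisons with a control; an asterisk marks a call, and colours end at ±3. ATF3 and DDIT3 are positive in all 4 columns, whereas BCL2A1 is −3.13 with PKR siRNA 2 and positive elsewhere.

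Genes most like the members that changed most were found by Pearson correlation of log2 values over the 9 libraries of a table, as a description, since the points share 3 groups. BAK1 in the siRNA table was most like CAP1, PYGB and HSPG2 (r = 0.99 each), and BCL2L11 in the C16 table most like MBTD1 (r = 0.98), COX11 (r = 0.96) and STK38L (r = 0.95). Against BAK1, BAX had r = −0.85 and BAD 0.75. In the C16 table BCL2L11 and BCL2L1 had r = −0.70.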

How the data were processed

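RNA-seq libraries of PANC-1 cells were poly(A)-selected, directional and paired-end. The authors aligned reads with TopHat to hg38 and counted them per gene with featureCounts. They deposited a normalized signal per gene, read counts scaled by TMM (in TCC), with the replicates kept apart, as 1 table per run. Dividing the deposited signal by the value of 1 read gave whole reads (within 0.01) for 100.0% of values in each library, and the resulting counts were used for edgeR and DESeq2 only. The read depth of each library sets the counting error of its values, which is widest for PMAIP1, BBC3, BCL2 and BCL2A1.

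Log2(normalized count + 1) was fitted with limma 3.58.1 (R 4.3.3) over the 9 libraries of a table, wherever a gene's mean reached 10, and p-values were adjusted by Benjamini-Hochberg over all tested genes. Alternatives were pseudocounts of 0.5 and 5, no minimum, a minimum of 30, median-of-ratios scaling, 2 groups only, a replicate block, edgeR 4.0.16, DESeq2 1.42.0 and leaving out each library. The scripts were tested on simulated data. Counts were compared between replicates of a group by chi-square over genes, and all 18 pairs differed by more than sampling noise. The excess was mostly small. Chi-square per degree of freedom, which is 1 for sampling noise alone, ran from 1.03 to 1.63. The 2 highest values were those of DMSO replicate 3 with replicate 1 (1.63) and with replicate 2 (1.37). Members and lists were chosen with earlier results of these data known. Named genes were all members, EIF2AK2, list genes called in at least 2 of the 4 comparisons with a control, and the 3 genes most like the member with the largest change in each table; exceptions are marked. Lengths are the exon lengths given in the tables, promoters are from RefSeq, and pseudogenes and siRNA sequences were not analysed here. Some genes of the partner, regulator and marker lists are not reported here, and the counts cover the rest of each list.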

Additional observations from a re-analysis of the deposited data

Results flagged for a closer look

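For 4 members the difference from control siRNA had opposite signs with the 2 PKR siRNAs, and the direct comparison of PKR siRNA 2 with PKR siRNA 1 passed the test (limma). The log2 difference was −1.12 for BCL2L1 (0.39 and −0.73 against control, adjusted p = 1.82e-19) and −1.51 for MCL1 (0.23 and −1.27, adjusted p = 1.00e-30). For BID it was −1.47 (0.34 and −1.13, adjusted p = 3.03e-16), and for BCL2L11 1.11 (−0.56 and 0.56, adjusted p = 1.65e-08). None of these 4 members was called against control with PKR siRNA 1, nor BCL2L11 with PKR siRNA 2. EIF2AK2 itself did not pass the test between the siRNAs (log2 −0.31, 95% confidence interval −0.80 to 0.18). Its PKR siRNA 2 libraries (7.96, 8.58 and 9.40 normalized counts) all lay below those of PKR siRNA 1 (10.0, 13.6 and 9.65). These values rest on 8, 8 and 10 reads against 9, 15 and 10. The values 9.40 and 9.65 both stand for 10 reads and differ only by scaling, so this order does not resolve a difference in knockdown. The part of EIF2AK2 levels in the results was not tested. The 2 siRNA groups share their control libraries.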

How the results depend on the processing

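Without a library, members called ranged from 2 to 4 with PKR siRNA 1, 3 to 5 with PKR siRNA 2, 1 to 3 at C16 400 nM and 2 to 4 at 800 nM. With a pseudocount of 5, 1 member was called at 800 nM in place of 3. Shares of guardians without length scaling were 57.7% with control siRNA, 65.9% with PKR siRNA 1, 43.0% with PKR siRNA 2, 53.3% in DMSO, 58.4% at 400 nM and 55.5% at 800 nM. Values that were not called changed sign in 4 fits without a library: BID between the doses (log2 −0.0629 to 0.134 over the fits without a library) and TRIB3 with PKR siRNA 2 (−0.0921 to 0.247). Over members and named list genes, 956 log2 differences stayed on their side of the threshold under other settings, 7 gained a call and 15 lost one, and in fits without a library 545 stayed, 15 gained and 36 lost one. Raising the minimum mean to 30 left 1 of the other BCL2 family called in each comparison with a control, as fewer genes were tested. Same-numbered libraries did not deviate together (correlations −0.03 to 0.06 in the siRNA table and −0.08 to 0.04 in the C16 table), so the numbers were not taken as pairs. With a replicate block, 2 members were called with PKR siRNA 1, 4 with PKR siRNA 2, 5 between the siRNAs, 2 at 400 nM, 3 at 800 nM and 0 between the doses. Reads of PMAIP1, BBC3 and BCL2 were the main limit of depth.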
